A study of Homo sapiens with 3 samples.

Results

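The genes described here are the annotated divergent transcripts of chromosomes 1 to 3, which are long noncoding RNA (lncRNA) genes whose symbol ends in -DT. They were taken from GENCODE release 44 by their biotype, their chromosome and that ending, a rule that uses no measured value. The annotation held 136 such genes, and 134 of them had a row in the counts, among 58051 genes in all. ZNF496-DT and ACAD9-DT had no row and were not analysed here. Of the 134, 60 lay on chromosome 1, 46 on chromosome 2 and 28 on chromosome 3. Each was set beside the protein-coding gene named before -DT, such as HK2 for HK2-DT.

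RNA was measured in H9, an established line of human embryonic stem cells, labelled WT and untreated. The single condition had 3 replicates, and libraries were made from total RNA that had been depleted of ribosomal RNA. The study used such expression levels to sort gene starts and splice sites before it compared DNA breaks at them. The labels do not say whether the replicates came from separate cultures, so the spread between them may be technical.

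Many promoters of human coding genes lie in CpG-rich DNA and start transcription in both directions. One polymerase copies the coding gene, and another copies the opposite strand away from it. RNA of the upstream direction is often ended early at polyadenylation signals, remains in the nucleus and is soon degraded, although some of it is spliced and stable. The ending -DT is given by gene nomenclature to a noncoding gene that starts head to head with the coding gene in its name.

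The arrangement is shown by the DNA that lies between the starts of a pair. The sequences below run 5′ to 3′ on the strand of the coding gene, from the base after the annotated start of the -DT gene to the base before that of the coding gene. They are from GRCh38, and capitals mark a match to one of 7 promoter motifs, with letters given further below. The first 6 belong to highly ranked members whose exons overlap no other gene, but they are not the 6 highest. MRPL20-DT, C2orf49-DT, CAPN10-DT, LRRC8D-DT and CAMTA1-DT ranked above C2orf74-DT, the lowest of the 6, and are not shown. Of these, C2orf49-DT, with 22 bases between the starts, had no motif match, while CAPN10-DT had 1 and LRRC8D-DT had 2.

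HK2-DT, chr2:74833988-74834126, plus strand: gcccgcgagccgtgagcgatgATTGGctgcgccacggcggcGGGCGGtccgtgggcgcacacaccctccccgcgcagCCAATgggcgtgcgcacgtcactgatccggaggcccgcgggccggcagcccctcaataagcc

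ZMPSTE24-DT, chr1:40257972-40258040, plus strand: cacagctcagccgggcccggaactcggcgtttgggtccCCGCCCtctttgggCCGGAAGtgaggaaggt

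RNASEH1-DT, chr2:3558334-3558418, minus strand: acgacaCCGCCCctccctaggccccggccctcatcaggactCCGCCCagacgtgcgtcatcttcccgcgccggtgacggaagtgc

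BOLA3-DT, chr2:74147913-74148006, minus strand: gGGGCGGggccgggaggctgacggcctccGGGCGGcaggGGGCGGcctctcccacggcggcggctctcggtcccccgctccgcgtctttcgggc

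SLC30A6-DT, chr2:32165758-32165840, plus strand: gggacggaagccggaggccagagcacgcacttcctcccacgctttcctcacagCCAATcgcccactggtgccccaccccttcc

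C2orf74-DT, chr2:61144970-61145067, plus strand: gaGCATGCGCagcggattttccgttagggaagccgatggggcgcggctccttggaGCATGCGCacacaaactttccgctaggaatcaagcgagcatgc

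A further pair of sequences was chosen after the values were seen. CNN3-DT is shown as a member far below a highly expressed coding gene, and FN1-DT as a member without a read.

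CNN3-DT, chr1:94927224-94927360, minus strand: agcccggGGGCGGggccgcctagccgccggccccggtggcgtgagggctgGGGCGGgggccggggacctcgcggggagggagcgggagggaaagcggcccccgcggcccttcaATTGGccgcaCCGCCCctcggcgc

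FN1-DT, chr2:215436074-215436252, minus strand: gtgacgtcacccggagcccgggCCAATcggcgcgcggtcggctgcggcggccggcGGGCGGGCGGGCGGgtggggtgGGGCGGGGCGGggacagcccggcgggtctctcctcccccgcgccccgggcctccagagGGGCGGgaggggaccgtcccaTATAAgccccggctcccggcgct

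The 8 stretches are 69 to 179 bases long, and each held at least 1 motif match. Not all pairs had one: of the 82 pairs with up to 300 bases between the starts, 58 held at least 1 match there. The stretch of HK2-DT held a CCAAT box in each orientation and 1 GC box, while that of BOLA3-DT held 3 GC boxes. Of the 8, only the stretch of C2orf74-DT held the core of the NRF1 motif, which it held at 2 positions. FN1-DT and FN1 are separated by 179 bases with a TATA match and 6 GC boxes, some of which overlap one another.

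All 134 -DT genes lay on the strand opposite to their coding gene. The distance from the -DT start to the coding start had a median of 90.5 bp, with quartiles of 5.25 and 183 bp. The distance was below 0 in 32 pairs, and in 31 of them the -DT gene starts inside the span of its coding gene. Starts lay within 1000 bp of each other in 120 pairs, and 82 pairs had at most 300 bases between nonoverlapping starts. For 132 of 134 genes the nearest coding start on the opposite strand was that of the named gene. The exceptions were ERICH2-DT, which starts beyond the far end of ERICH2 and nearer to GAD1, and MICOS10-DT, which starts nearer to NBL1 and 112429 bp inside MICOS10 as annotated. EIF2AK3-DT starts 63979 bp inside EIF2AK3, so its position is not that of a head-to-head pair.

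**Figure D1:**
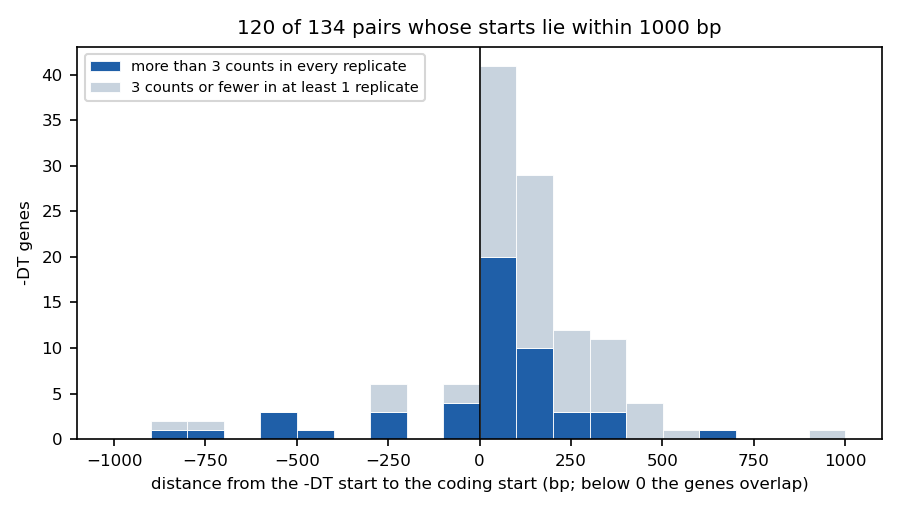
Number of -DT genes by the distance between the annotated -DT start and coding start, in bins of 100 bp, for the 120 pairs within 1000 bp. Dark bars count genes with more than 3 counts in every replicate. The bin from 1 to 100 bp is the fullest, with 41 genes, and 20 of them passed that limit.

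Few reads fell on these genes. The totals of counted reads were 10390984, 12024802 and 8655155 in replicates 1, 2 and 3, and the 134 genes together held 2336, 2712 and 2018 of them. This is 0.0225%, 0.0226% and 0.0233% of the counts, and 0.663%, 0.651% and 0.644% of the reads on all lncRNA genes. Shares of both kinds were thus close between replicates. USP34-DT alone held 14.8% of the reads on the -DT genes, the 3 genes with the most reads 36.0%, and the 10 with the most 57.9%.

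At least 1 read was counted for 118 of 134 genes, and 16 had no read in any replicate. A further 22 had 1 to 3 reads in all. A count of 0 allows up to 3 counts, so a gene was called detected where it had more than 3 counts in every replicate. By this limit 55 of 134 -DT genes (41.0%) were detected, while 21.4% of the 2702 other lncRNA genes of the same chromosomes were. On the remaining chromosomes 38.4% of 443 -DT genes were detected. The -DT genes of chromosomes 1 to 3 were thus near those of other chromosomes and above other lncRNA genes in this share, as a description with no test.

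Reads of a neighboring gene can enter these counts. Whether reads were counted by strand is not given in the sources used here, and 49 of the 134 share at least 1 exon base with another annotated gene, 47 of them on the opposite strand. A median of 9.82% of their exon length was shared. Of these 49, 29 were detected (59.2%), against 26 of the 85 without a shared base (30.6%). Median exon length was 1715 bases for the 85 and 2105.5 bases for all 134, and its part in this contrast was not tested. A neighbor's mean level multiplied by the shared fraction of the -DT gene reached or exceeded the level of the -DT gene itself in 11 of the 29. In the rest it was lower. It lay far above that level for PPP4R3B-DT, at 48.4 against 7.25 TPM, and for MMADHC-DT, at 14.2 against 0.939 TPM. How many of the reads belong to the neighbors was not tested, and counts of the 49 are uncertain.

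Without shared bases, the share of detected genes was lower in each kind of lncRNA gene. It was 30.6% for the 85 -DT genes, 27.0% for 282 -DT genes of other chromosomes, 17.1% for 181 antisense genes with symbols ending in -AS, 12% (49 genes) for 407 LINC genes and 8.48% for 1014 other lncRNA genes. Among all 495 antisense genes it was 38.0%, close to the 41.0% of the -DT genes before genes with shared bases were left out. Exon length also differed between these subsets, with medians of 1715, 1346.5, 820, 1789 and 626 bases in the same order. The part of length in these shares was not tested.

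**Figure D2:**
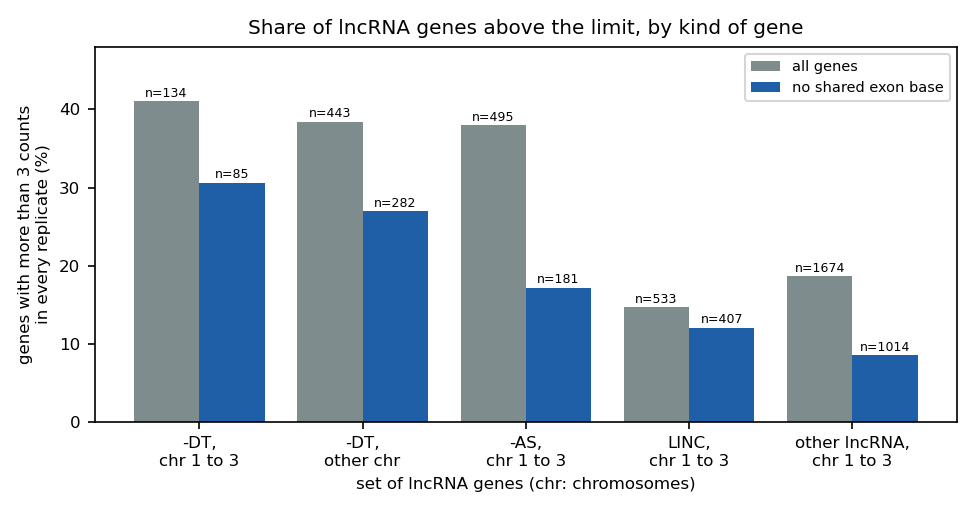
Percent of genes with more than 3 counts in every replicate (y axis) for 5 sets of lncRNA genes, with all genes in gray and genes without a shared exon base in blue. Bars stand for single percentages over the genes counted above them. The blue bar is highest for the -DT genes of chromosomes 1 to 3, at 30.6%, followed by the -DT genes of other chromosomes, at 27.0%.

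Levels were compared between genes in TPM, a unit in which counts are divided by the summed exon length of the gene and each library is scaled to the same sum. The median over the 134 of the mean TPM was 0.700, with quartiles of 0.252 and 2.15, and the highest mean was 49.8 TPM. There were 46 genes over 1 TPM and 6 over 10 TPM. What 3 counts are worth depends on length, and ran from 0.0758 to 5.63 TPM with a median of 0.553 TPM. Detected -DT genes had a median exon length of 3332 bases and the 79 others 1491 bases, so a low level on a short gene was often not detectable at this depth. In bulk RNA, a low level in every cell and a higher level in few cells cannot be told apart.

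The cells were checked by their markers. The 10 genes of pluripotent stem cells examined, among them POU5F1, NANOG and SOX2, had means of 259 to 2576 TPM. The highest of the 4 neural markers had 14.6 TPM, of the 4 mesoderm markers 22.3 TPM, of the 4 endoderm markers 7.54 TPM and of the 4 fibroblast markers 14.6 TPM.

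Among detected genes without a shared exon base, HK2-DT stood highest. HK2-DT (ENSG00000272711, chromosome 2, 74832655 to 74833987, minus strand, 1 exon) lies beside HK2, the gene of hexokinase 2 in glycolysis. It had 90, 102 and 56 counts, or 25.9, 25.3 and 18.9 TPM, in replicates 1, 2 and 3. The mean was 23.4 ± 3.87 TPM (SD, n = 3), and HK2 had 132 ± 2.19 TPM. HK2-DT thus reached 17.6 ± 2.81% of the level of its coding gene, with replicate 3 the lowest.

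MRPL20-DT followed (ENSG00000272455, chromosome 1, 1409096 to 1410618, plus strand, 1 exon). Its coding gene MRPL20 encodes a protein of the mitochondrial ribosome. MRPL20-DT had 52, 64 and 57 counts, or 13.1, 13.9 and 16.9 TPM, and its mean of 14.6 ± 1.98 TPM (SD, n = 3) was 14.2 ± 2.21% of that of MRPL20. Its replicates did not overlap those of HK2-DT. The starts of this pair are 1803 bp apart, farther than most, and 15.6% of the exon bases of MRPL20 are shared with another gene.

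Next were ZMPSTE24-DT and RNASEH1-DT, which overlapped in their replicates. ZMPSTE24-DT (chromosome 1, 40256333 to 40257971, minus strand) lies beside the gene of the protease that matures prelamin A. It had 28, 48 and 31 counts, or 6.56, 9.68 and 8.52 TPM, which was 8.05 ± 1.63% of ZMPSTE24 at 103 ± 4.59 TPM (SD, n = 3). RNASEH1-DT (chromosome 2, 3558419 to 3564842, plus strand, 3 exons) lies beside the gene of ribonuclease H1, which degrades RNA in hybrids with DNA. It had 115, 98 and 71 counts, or 9.97, 7.31 and 7.22 TPM, and a mean of 34.2 ± 6.87% of RNASEH1. RNASEH1 itself had 23.9 ± 0.351 TPM (SD, n = 3). A gene on the same strand covers 17.1% of the exon bases of RNASEH1.

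C2orf49-DT had 56, 87 and 58 counts, or 6.02, 8.04 and 7.31 TPM, and was at 30.3 ± 4.61% of C2orf49. BOLA3-DT, beside a gene of mitochondrial iron-sulfur cluster assembly, had 65, 66 and 46 counts, or 6.33, 5.53 and 5.25 TPM. BOLA3 had 20.3 ± 2.28 TPM (SD, n = 3), so BOLA3-DT was at 28.3 ± 3.91% of it. SLC30A6-DT had only 9, 13 and 7 counts on 717 exon bases, and its 5.07 ± 0.825 TPM (SD, n = 3) was 9.86 ± 2.26% of SLC30A6, the gene of a zinc transporter. These middle levels thus rest on very different numbers of reads.

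CAPN10-DT, beside the gene of the protease calpain 10, had 51, 52 and 47 counts and 4.83 ± 0.503 TPM (SD, n = 3). LRRC8D-DT had 9, 10 and 7 counts and 4.76 ± 0.218 TPM, and LRRC8D, which encodes a subunit of volume-regulated anion channels, had 42.8 ± 1.41 TPM. All 695 exon bases of LRRC8D-DT lie within the span of a coding gene, although in none of its exons. CAMTA1-DT, with 4, 5 and 6 counts, and CRIM1-DT, with 4, 13 and 8 counts, had 4.73 ± 1.55 and 4.32 ± 1.97 TPM (SD, n = 3). The order of CAPN10-DT, LRRC8D-DT, CAMTA1-DT and CRIM1-DT is not separated by their spread.

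**Figure D3:**
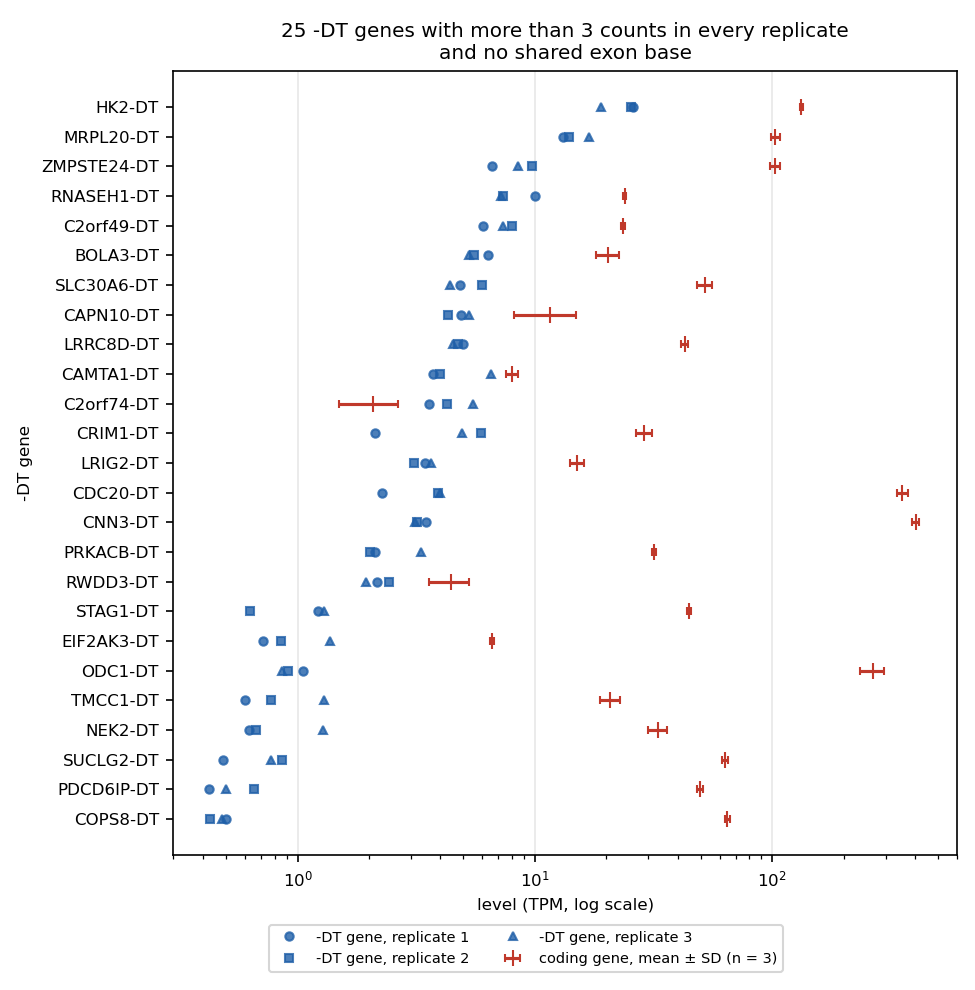
Level in TPM (x axis, log scale) of 25 of the 26 -DT genes with more than 3 counts in every replicate and no shared exon base, 1 row per gene and 1 blue symbol per replicate. Red marks give the mean ± SD of the coding gene over 3 replicates. HK2-DT stands highest, at 18.9 to 25.9 TPM, and only C2orf74-DT lies above its coding gene.

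Of the 5 -DT genes with the highest level whatever the overlap, 4 share exon bases with a neighbor. USP34-DT (chromosome 2, 61471188 to 61484130, plus strand) had 360, 389 and 297 counts, or 51.6, 47.9 and 49.9 TPM. Its mean of 49.8 ± 1.82 TPM (SD, n = 3) was 92.7 ± 6.0% of that of USP34, the gene of a deubiquitinase. Of its exon bases 25.7% lie in exons of XPO1, the gene of a nuclear export receptor, which had 105 TPM.

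WDR5B-DT (chromosome 3, 122416200 to 122443180, plus strand) had 330, 389 and 265 counts, or 43.7, 44.3 and 41.2 TPM. WDR5B, a close relative of the WDR5 gene of histone methyltransferase complexes, had 5.37, 5.41 and 5.88 TPM, so that WDR5B-DT stood at 778 ± 67.0% of it (SD, n = 3). The importin gene KPNA1, at 41.6 TPM, holds 47.5% of the exon bases of WDR5B-DT. For NCMAP-DT, with 105, 100 and 82 counts and 25.4 ± 2.52 TPM, 74.4% of exon bases lie in RCAN3, which had 38.1 TPM. NCMAP, a gene of myelinating glia, had only 0.783 ± 0.463 TPM (SD, n = 3). EOGT-DT, with 177, 186 and 148 counts, was at 17.5 ± 0.922 TPM and shares 20.1% of its exon bases with TMF1 and UBA3.

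USP34-DT, WDR5B-DT and EOGT-DT were the 3 members with at least 100 counts in every replicate. Their coefficients of variation were 3.65%, 3.88% and 5.28%. Over the 17 members with at least 100 reads in all, the median coefficient of variation of TPM was 11.7%, and counting alone would give 13.0%. The replicates of these better counted members thus differed by about the counting error.

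The coding genes in the same pairs were far higher. They had a median of 23.1 TPM, from 0.0218 to 703.5 TPM, and 128 of 134 (95.5%) were detected, against 72.7% of the 4159 other coding genes of chromosomes 1 to 3, which had a median of 7.16 TPM. In 74 pairs the coding gene was detected and the -DT gene was not. The reverse was found in 1 pair, that of ERICH2-DT, which had 9, 18 and 13 counts while ERICH2 had 6, 1 and 1.

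Per kilobase of exon, the -DT gene was below its coding gene in every replicate in 124 of 134 pairs (92.5%), beside 89.8% of 441 pairs on other chromosomes. The 124 include 13 members without a read, and in 11 of these the coding gene was above the 3 counts that zeros allow. With each count under 3 set at 3, 121 of 134 pairs were below in every replicate. In 123 of the 124 pairs all replicates of the -DT gene were below all those of the coding gene. The median over pairs of the log2 ratio, with a pseudocount of 0.5 count, was −4.36, and its values were −4.67, −4.32 and −4.15 in replicates 1, 2 and 3. With the 16 members without a read set at the 3 counts that their zeros allow, this median was −3.83. A percentage of the coding level was also taken without the pseudocount and averaged over the replicates, and its median over pairs was 3.20%. There were 42 genes over 10% of their coding gene, and 31 of the 118 with a read were under 1%. For the 16 without a read the limit of 3 counts does not reach below 1%. With 3 libraries an exact sign-flip permutation test could not go below p = 0.25, so none was made.

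Among the 26 detected members without a shared base, the median log2 ratio was −3.02 and the median percentage 11.6%, from 0.356% for ODC1-DT to 221% for C2orf74-DT. The 76 such members of other chromosomes had medians of −3.75 and 7.53%. Selection by detection removes low members, so these medians describe the better measured genes and not all of them. Shared bases were judged on the -DT gene only. Of the 134 coding genes 79 share an exon base with another gene, which may affect their side of the ratio.

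**Figure D4:**
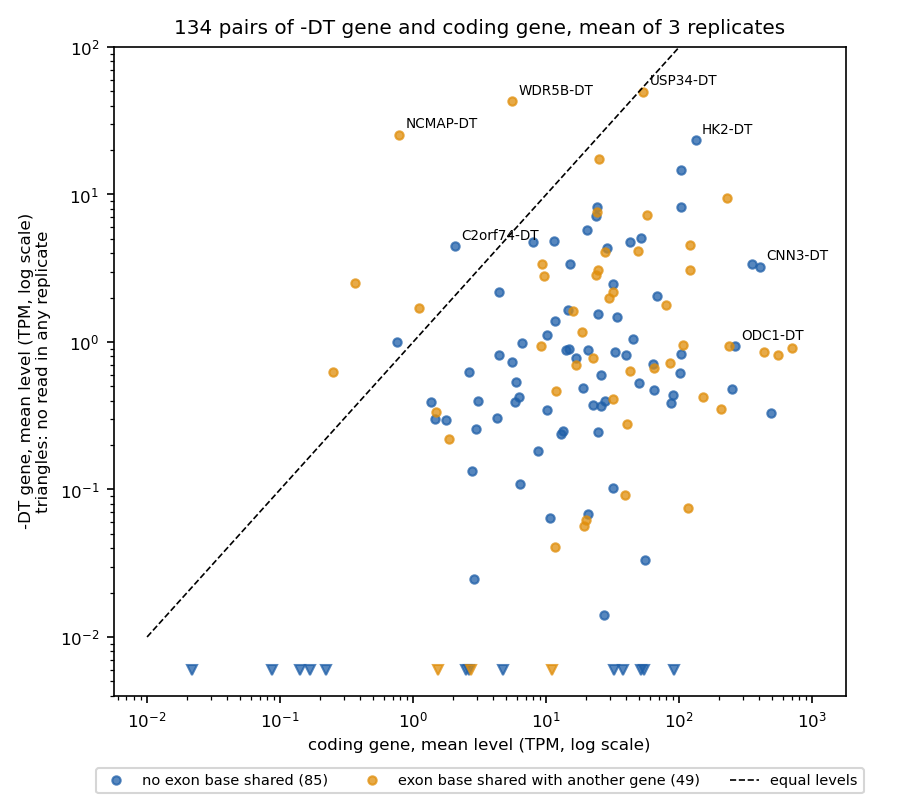
Mean TPM of each -DT gene (y axis, log scale) against that of its coding gene (x axis, log scale) for 134 pairs, with the line of equal levels. Blue points are the 85 members without a shared exon base, orange points the 49 with one, and triangles the 16 without a read. Most points lie below the line, and the highest points above it, WDR5B-DT and NCMAP-DT, are orange.

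The -DT gene was above its coding gene in every replicate in 5 pairs (3.73%), and the background for this count was 4.08% of the pairs on other chromosomes. The 5 were WDR5B-DT, NCMAP-DT, C2orf74-DT, BRINP3-DT and LRRC8C-DT, and C2orf74-DT was the only one of them without a shared exon base. C2orf74-DT (chromosome 2, 61141592 to 61144969, minus strand, 3 exons) had 29, 40 and 38 counts, or 3.58, 4.25 and 5.51 TPM. C2orf74 had 2.03, 1.52 and 2.67 TPM, so C2orf74-DT was at 221 ± 52.5% of it (SD, n = 3) and the replicates did not overlap. However, 50.6% of the exon bases of C2orf74 are shared with a gene on its own strand, and how its reads were assigned is not known.

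LRRC8C-DT had 53, 64 and 49 counts on 12510 exon bases, or 1.63, 1.69 and 1.76 TPM. LRRC8C, of the same channel family as LRRC8D, had 1.25, 0.846 and 1.23 TPM. LRRC8C-DT shares 8.39% of its exon bases, most of them with LRRC8B, which had 38.0 TPM. The level of the neighbors multiplied by the shared fraction is 2.79 TPM, above the 1.69 TPM of LRRC8C-DT. BRINP3-DT had only 4, 5 and 3 counts, and BRINP3 had 0.368 ± 0.118 TPM (SD, n = 3). Thus both had a coding gene at a low level.

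In a further 5 pairs the -DT gene was neither above nor below its coding gene in all replicates, those of GPR155-DT, ERICH2-DT, AVPR1B-DT, DLX2-DT and CFAP100-DT. Of these, AVPR1B-DT, DLX2-DT and CFAP100-DT had no read, and their coding genes had at most 0.141 TPM.

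The highest ratios after C2orf74-DT, among members without a shared base, were those of CAMTA1-DT at 59.4 ± 20.7%, RWDD3-DT at 50.8 ± 12.6% and CAPN10-DT at 43.9 ± 11.6% (SD, n = 3). RWDD3-DT had 26, 34 and 20 counts, and all 4619 of its exon bases lie within the span of a coding gene. Of the exon bases of RWDD3 50.6% are shared on its own strand, and of those of CAPN10 8.77%. CAPN10 spread more than its -DT gene, at 8.60, 10.8 and 15.2 TPM.

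The 6 lowest ratios among detected members without a shared base stood beside coding genes at 49.6 TPM or more. ODC1-DT (chromosome 2, 10448654 to 10457693, plus strand, 5 exons) had 13, 13 and 9 counts, or 1.06, 0.908 and 0.857 TPM. ODC1, the rate-limiting enzyme gene of polyamine synthesis, had 265 ± 29.6 TPM, so ODC1-DT was at 0.356 ± 0.0262% of it (SD, n = 3). CNN3-DT had 30, 32 and 23 counts, or 3.46, 3.17 and 3.11 TPM, and CNN3, the gene of the actin-binding protein calponin 3, had 402 ± 12.7 TPM. CNN3-DT was thus at 0.807 ± 0.0303% of it (SD, n = 3). CNN3 was above HK2 in every replicate, while CNN3-DT was below HK2-DT in every replicate.

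CDC20-DT had 4, 8 and 6 counts and was at 0.959 ± 0.287% of CDC20 (SD, n = 3), whose protein activates the anaphase-promoting complex. COPS8-DT had 17, 17 and 14 counts on 13096 exon bases and was at 0.729 ± 0.0722% of COPS8, a subunit gene of the COP9 signalosome. PDCD6IP-DT and SUCLG2-DT were at 1.06 ± 0.220% and 1.12 ± 0.315% of their coding genes. Thus the 6 lowest ratios ran from 0.356% to 1.12%.

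Among the 16 members without a read, 13 shared no exon base, and the coding gene was detected in 12 and over 10 TPM in 6. NUP133, a nuclear pore gene, had 91.5 ± 2.85 TPM (SD, n = 3) while NUP133-DT had no read on 723 exon bases. With 3 counts per library as the limit, NUP133 was at least 56.8-fold higher than NUP133-DT. By the same limit FN1, the fibronectin gene, was at least 38.6-fold higher than FN1-DT, UBE2E2 at least 25.8-fold higher than UBE2E2-DT, PRKD3 at least 23.6-fold higher than PRKD3-DT and WDTC1 at least 10.5-fold higher than WDTC1-DT. Such limits hold for counting error alone, and PCR copies of a molecule may have been counted as separate reads.

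Levels of the -DT genes and of their coding genes were only weakly related across pairs. Spearman's rho was 0.273 over all 134 pairs and 0.285 over the 441 pairs on other chromosomes, and it was 0.327 over the 85 members without a shared base. Over the 26 detected members without one it was 0.000342. Both genes of a pair share the library, the region and its base composition, and low counts tie many members, so these are descriptions.

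The pairs were also ranked by coding level and split into 4 bins. From the lowest to the highest bin 6 of 34, 12 of 33, 19 of 33 and 18 of 34 -DT genes were detected, and without shared bases 2 of 25, 7 of 21, 9 of 21 and 8 of 18. The median percentage of the coding level went the other way, from 11.4% through 4.41% and 2.69% to 0.736%. The percentage has the coding level in its denominator.

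By distance, 20 of 41 members starting within 100 bp of the coding start were detected, 10 of 29 beyond that up to 200 bp and 6 of 27 farther up to 500 bp. Without shared bases the counts were 13 of 30, 5 of 20 and 5 of 25. Over 500 bp apart they were 2 of 5, all without shared bases. Where the starts overlapped by at most 1000 bp, 13 of 20 members were detected, but only 1 of these 20 had no shared base, and with a larger overlap 4 of 12 were. Median exon length, which sets the limit of detection, was 3109, 2681 and 869 bases in the first 3 distance bins, and its part in these counts was not tested. Of 28 members with a single exon 14 were detected, and of 106 with more exons 41. Without shared bases these were 10 of 23 and 16 of 62.

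Further members are named by the role of their coding gene. CDC20-DT, NEK2-DT and STAG1-DT, each beside a gene of the cell cycle, were detected. STAG1-DT, beside a cohesin gene, had 10, 6 and 9 counts and 2.34 ± 0.808% of the level of STAG1 (SD, n = 3). NEK2-DT, beside the gene of a centrosome kinase, had 4, 5 and 7 counts. POU2F1-DT, FOXP1-DT, PRDM16-DT and DLX2-DT, each beside the gene of a transcription factor, did not pass the limit. However, POU2F1-DT had 3, 4 and 5 counts on 767 exon bases, or 2.05 TPM. This is above the 1.05 TPM of STAG1-DT, which has 3151 exon bases. Over all members 41.0% were detected, and so few members per role give no contrast between roles.

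PSMD14-DT, beside a gene of the proteasome, had 6, 5 and 7 counts and shares 18.6% of its exon bases with other genes. ZNF691-DT, beside a zinc finger gene, had 20, 29 and 17 counts, with 12.6% of its exon bases in ERMAP. EIF2AK3-DT had 8, 11 and 13 counts, and EIF2AK3 encodes the PERK kinase that limits translation under stress. All 4283 exon bases of EIF2AK3-DT lie within the span of a coding gene. Roles were read from patterns in symbols, which miss genes and misplace others, so no share of detected members is given by role.

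Promoter windows were read from 250 bases before to 50 bases after each annotated start, on both strands. A GC box, GGGCGG, was found in 67.9% of the -DT windows, in 68.7% of those of their coding genes and in 50.9% of those of other coding genes of chromosomes 1 to 3. A CCAAT box was in 34.3%, 42.5% and 35.3%, and TATAA in 10.4%, 12.7% and 18.5%. On the gene's own strand, 15 to 40 bases before the start, TATAA was found for 2 of 134 -DT genes (1.49%). There it was found for 7 of their 134 coding genes (5.22%) and for 4.38% of the other coding genes. The core of the ETS motif, CCGGAAG, was in 15.7% of the windows on either side of the pairs and in 10.6% of the others. The core of the NRF1 motif, GCGCATGC, was in 2.99%, 2.99% and 2.98%, that of the YY1 motif, AAGATGGC, in 3.73%, 4.48% and 2.91%, and the E-box CACGTG in 8.21%, 6.72% and 7.96%. The windows of a pair overlap, so their shares are not independent, and a match is not a site.

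Over 500 bases around the start, median GC content was 64.6% for the -DT genes, 67.3% for their coding genes and 61.2% for other coding genes. A GC content over 50% with a ratio of observed to expected CpG over 0.6 was met by 88.1% of the -DT starts, by 88.1% of their coding starts and by 59.3% of the other coding starts. Among other coding genes that were detected it was 72.8%, and their GC box share was 60.6%. Both sides of the pairs thus lay above the other coding genes in the CpG and GC box shares also when those were restricted to detected genes.

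The 1000 bases from each gene start, introns included, were then read on the strand of the gene for the hexamer AATAAA, the letters of the common polyadenylation signal, and for GTAAGT, a strong 5′ splice site. Of the -DT genes 14 span fewer bases, so that their windows hold the annotated gene end and run past it. AATAAA was in 35.8% of the windows of -DT genes, in 16.4% of those of their coding genes and in 23.3% of those of other coding genes, or 19.8% of those detected. Among genes that span at least 1000 bases it was in 32.5% of 120 -DT genes, 16.4% of their coding genes and 22.8% of other coding genes. GTAAGT was in 14.2%, 16.4% and 20.5%, or 17.4% of those detected. In 32.8% of the -DT windows AATAAA came before any GTAAGT, compared with 14.2% of those of their coding genes. Of the 26 detected members without a shared base, 12 held AATAAA and 1 held GTAAGT, and of the 22 that span at least 1000 bases these were 8 and 1. The AT-rich hexamer is rarer in GC-rich DNA, and its relation to base composition was not tested.

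**Figure D5:**
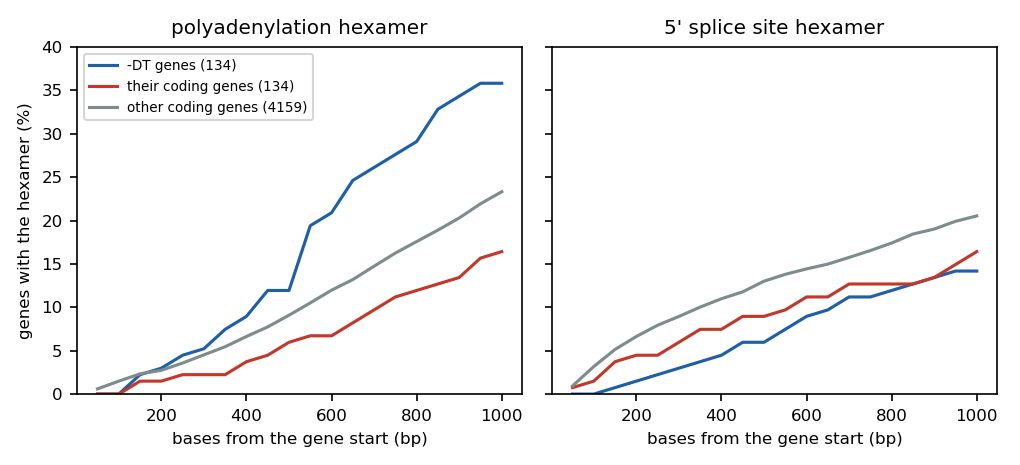
Percent of genes (y axis) with AATAAA (left) or GTAAGT (right) within a given number of bases downstream of the gene start (x axis, bp), on the strand of the gene, also past the end of genes that span less. At 1000 bases the left panel reaches 35.8% for the -DT genes, 16.4% for their coding genes and 23.3% for other coding genes. In the right panel these are 14.2%, 16.4% and 20.5%.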

How the data were processed

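Total RNA of 3 replicates of H9 cells was sequenced after ribosomal RNA depletion. The authors trimmed and aligned the reads to GRCh38, and the submitters' processing notes name Trim Galore 0.4.4, TopHat2 2.1.1 and Cufflinks 2.2.1. The deposited values are raw counts of reads per gene, not normalized. Which tool and annotation were used for counting, and whether it was by strand, is not stated in the sources read here. Their own TPM values were not used.

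Identifiers were matched to GENCODE release 44 on the same build, and 1103 of 58051 had no match. TPM was computed from the counts and the union of exons over all matched genes and averaged over the replicates. Log2 ratios of counts per kilobase were taken within each library with a pseudocount of 0.5 count. A shared exon base is 1 base or more in an exon of any other annotated gene, on either strand. The ratio step was tested on simulated pairs with a detected coding gene. Their true ratios were all above the median ratio reported here, so the lower ratios were not covered. Promoter sequence was read from GRCh38.

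With 1 condition, no groups were compared and no difference was tested, and members are not replicates. The members and gene lists were chosen with earlier results of these data known. Genes named were the 12 highest members without a shared base, the 5 highest of all, the 6 highest and 6 lowest ratios among detected pairs without a shared base, the 5 without reads beside the highest coding genes, up to 2 detected members with the highest level per role, and the 3 most and 3 least variable with at least 100 counts in every replicate. Other genes named were chosen after their values were seen. Alternatives were other detection limits, pseudocounts, lengths and scalings (edgeR 4.0.16 TMM and DESeq2 1.42.0 size factors), mitochondrial genes left out, thinned counts, members without shared bases, nearest coding starts and leaving out each replicate. The scripts ran in Python 3.11.15 with pandas 2.3.3, numpy 2.4.6, matplotlib 3.10.9 and scipy 1.17.1, and in R 4.3.3. Values of 1 detected member are not reported here.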

Additional observations from a re-analysis of the deposited data

How the results depend on the processing

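The number of detected -DT genes was 55, and it became 86 with at least 1 count in every replicate, 33 with at least 10, 118 with at least 1 count in any replicate and 26 among members without a shared exon base. Leaving out 1 replicate gave 55 to 60. The median level of 0.700 TPM became 0.484 TPM without shared bases, 2.85 TPM among detected members and 0.325 as CPM, and 0.623 to 0.721 TPM with 1 replicate left out. The median log2 ratio of −4.36 became −4.72 with a pseudocount of 0.1, −3.85 with 1, −6.26 without length and −3.43 in the 54 pairs with both genes detected, and −4.52 to −4.24 with 1 replicate left out. The number of members above their coding gene was 5, or 5 to 6 with 1 replicate left out, and 1 without shared bases. Spearman's rho of 0.273 was 0.237 to 0.277 with 1 replicate left out, 0.208 as CPM and 0.327 without shared bases, and it reversed to −0.10 in the 54 pairs with both genes detected, where fewer genes enter. Counts thinned to 50%, the longest transcript as length, TMM and DESeq2 factors, mitochondrial genes left out and the nearest coding start moved the values they were tried on by less than the spread between replicates, or the counts by less than 1.5 times. With choices made after seeing the data, 121 in place of 124 members were below their coding gene when each count under 3 was set at 3, and AATAAA was in 32.5% in place of 35.8% of windows among genes spanning at least 1000 bases. No paired analysis was possible because all 3 samples belong to 1 group. Depth limits the low members most, since 3 counts are worth a median of 0.553 TPM.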
